A study of Mus musculus with 12 samples.

Results

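The 8 genes described are Aldh1a3, Crabp1, Crabp2, Cyp26b1, Rarb and Rxrg of the retinoic acid pathway, and Meis2 and Cbln2, here called frontal genes. They were picked by symbol from the 55357 genes counted in each of 12 messenger RNA libraries, and each symbol matched 1 row. The libraries came from mouse cerebral cortex, taken with the hippocampal formation at E17.5, late in gestation, and cut into rostral and caudal pieces. Knockout embryos (NcreEGFRFF, Nestin-EgfrF/F) had floxed Egfr, the epidermal growth factor receptor gene, on both chromosomes and a Cre recombinase driven by Nestin, which acts in neural progenitors and their offspring. Control embryos (EGFRF+, EgfrF/+) had 1 floxed and 1 intact allele. The titles name 3 knockout embryos (5, 2 and 7) and 3 control embryos (1, 3 and 9), each with a rostral and a caudal library, which gives 4 groups of 3. The titles name Cre in the knockout alone, so loss of Egfr and presence of Cre cannot be told apart.

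Retinoic acid is made from vitamin A by retinaldehyde dehydrogenases, carried inside cells by CRABP proteins and broken down by CYP26 enzymes. It binds retinoic acid receptors, which sit on DNA as dimers with retinoid X receptors and switch on target genes, Rarb among them. In the developing forebrain it acts on striatal neurons, which carry RARB and RXRG, and on the cortex. In the human and macaque fetal cortex, retinoic acid signalling and CBLN2 are enriched in the prefrontal region.

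Because Rarb is both a receptor and a known target of the pathway, its promoter is shown. The window runs from 250 bases before a transcript start to 50 bases after it, as given by RefSeq on GRCm38.p6. It lies at chr14:16575427-16575726 on the minus strand of that build, while the counted gene lies on the plus strand of GRCm39. Whether all counted Rarb RNA begins at this start was not tested. Capitals mark the only match to GNTCANNNNNNGNTCA, a direct repeat of the receptor core GNTCA. Its spacer counts as 5 bases, as the letter just before each core belongs to the repeated site and may be any base.
Rarb promoter: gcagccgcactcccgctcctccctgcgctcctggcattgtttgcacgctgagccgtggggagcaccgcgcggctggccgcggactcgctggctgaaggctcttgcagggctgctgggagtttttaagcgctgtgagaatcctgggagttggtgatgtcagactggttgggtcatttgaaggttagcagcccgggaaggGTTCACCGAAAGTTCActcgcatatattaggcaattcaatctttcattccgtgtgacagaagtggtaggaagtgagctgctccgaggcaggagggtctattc
The repeat lies at bases 199 to 214 of the window and begins 52 bases before the start. Searched on both strands, it was found in 283 of 32851 promoters of this length, 0.8615%. Of the 8 genes, 5 were in the promoter table, with 6 promoters. The promoters of Rxrg, Meis2, Cyp26b1 and Crabp1 held neither this repeat nor the forms with shorter spacers, GNTCANNNGNTCA and GNTCANNGNTCA, which share letters with it and were found in 1.117% and 1.257% of promoters. A match in letters is a description and not evidence of binding.

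Total counts ran from 25223733 to 30383672 per library. Egfr was at 3.601 to 6.93 CPM (counts scaled to a library total of 1000000) in knockout rostral and 19.2 to 31.1 CPM in control rostral libraries, and at 5.69 to 7.33 CPM in knockout caudal and 29.9 to 41.6 CPM in control caudal libraries. The 8 markers of cortical excitatory neurons were above 0 in every library, with sums from 1564 to 2524 CPM. Other transcripts ran against the titles. Xist and Y-linked transcripts were alike in both parts of 1 of the 6 titled embryos, and control rostral 1 and 3 held both kinds. Nr2f1, whose product patterns the cortex and is known to be more abundant caudally, was lower in the library labelled caudal than in the one labelled rostral for knockout embryo 2 (71.3 against 340 CPM) and control embryo 3 (58.6 against 348 CPM). Parts and embryos below are therefore those of the labels, n counts libraries, and p-values measure the spread between libraries or titled sums, which may not be separate embryos. In bulk tissue, fewer cells of a type and less RNA per cell cannot be told apart.

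Levels differed far more between libraries of 1 group than between groups for most of the 8 genes. Aldh1a3 spanned 113-fold over the 12 libraries, Rxrg 32.6-fold and Rarb 23.9-fold. Crabp2 spanned 8.13-fold, Cyp26b1 6.99-fold, Crabp1 6.46-fold, Cbln2 3.83-fold and Meis2 2.47-fold. Scaled for transcript length, median levels were 178 TPM for Meis2 (counts divided by exon length and scaled to 1000000 per library), 7.29 TPM for Rxrg, 6.45 TPM for Cbln2, 4.67 TPM for Crabp1, 1.79 TPM for Rarb, 1.22 TPM for Cyp26b1, 1.08 TPM for Crabp2 and 0.341 TPM for Aldh1a3. Meis2 thus stood far above the rest.

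**Figure D1:**
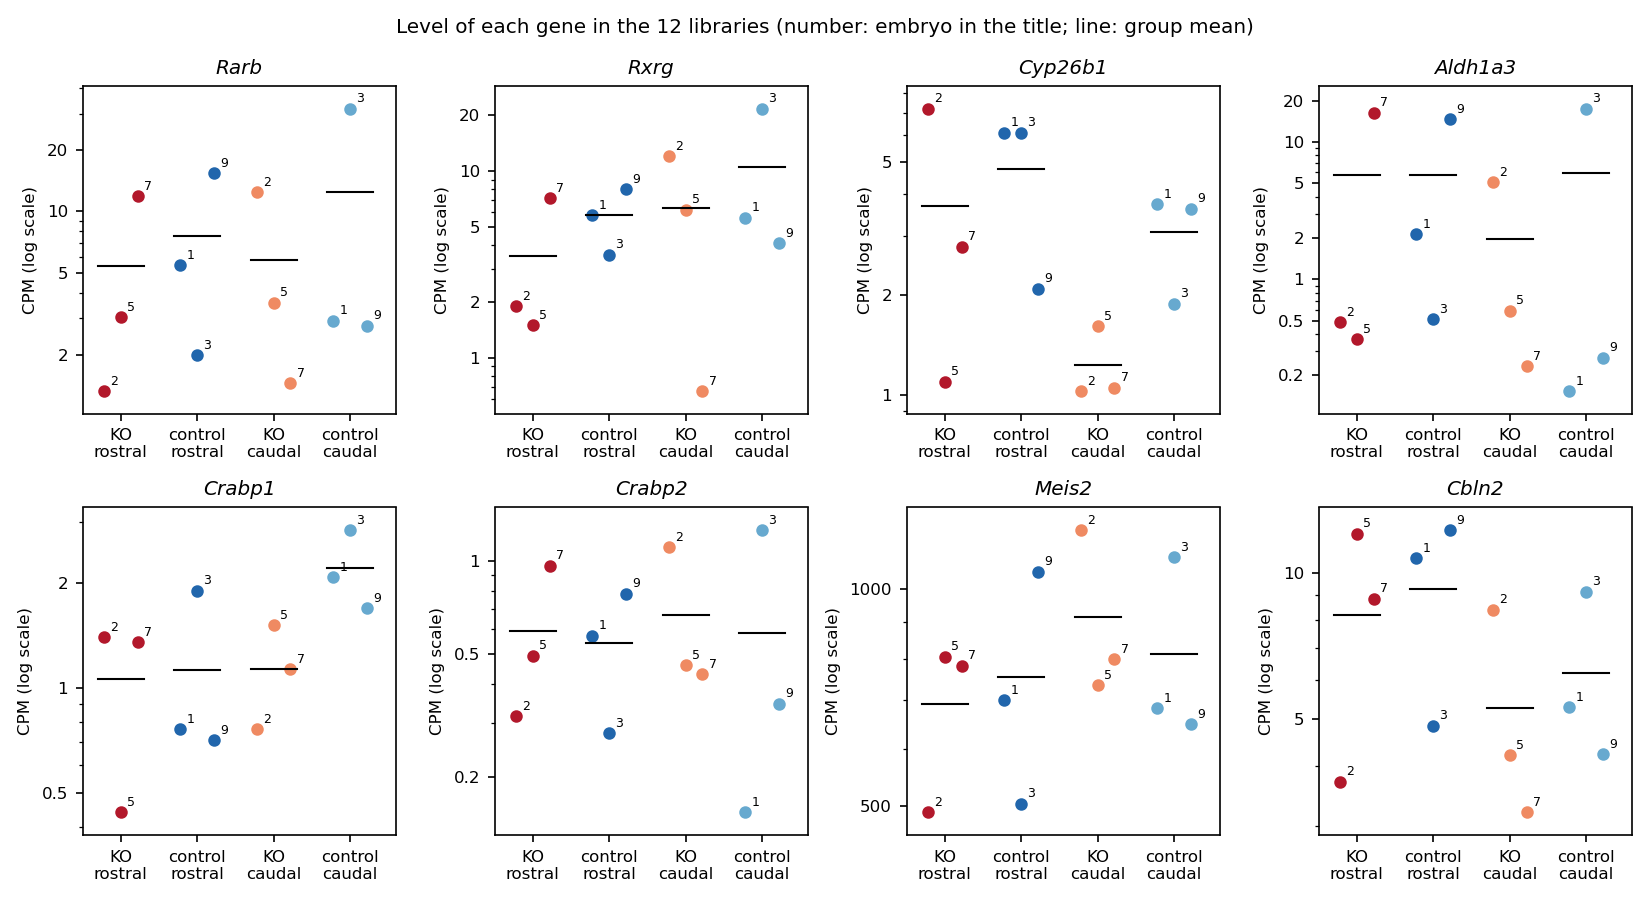
Level of each of the 8 genes in CPM (log axes, own scale per gene) in the 4 groups of 3 libraries, each point a library with its titled embryo number and each line the group mean. Only Cyp26b1 and Crabp1 in caudal libraries have knockout points that all lie below the control points. Control caudal 3 is the highest point for Rarb, Rxrg, Aldh1a3, Crabp1 and Crabp2.

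Aldh1a3 (ENSMUSG00000015134.16, GRCm39 chromosome 7, 66040638 to 66077265), a retinaldehyde dehydrogenase that makes retinoic acid, was low in most libraries and high in a few. In rostral libraries it was at 0.366, 0.489 and 16.4 CPM in knockout 5, 2 and 7, against 2.14, 0.515 and 14.7 CPM in control 1, 3 and 9. In caudal libraries it was at 0.592, 5.12 and 0.234 CPM in knockout 5, 2 and 7, against 0.154, 17.499 and 0.269 CPM in control 1, 3 and 9. Each group held 1 library far above its other two, and the genotypes overlapped in both parts. The single high libraries make the fold changes very wide. In caudal libraries the log2 fold change was -1.61 (95% interval -5.99 to 2.77), and without control caudal 3 it was 3.21.

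Crabp1 (ENSMUSG00000032291.9, chromosome 9, 54672032 to 54680394) encodes a cytosolic carrier of retinoic acid. Its caudal levels were 1.51, 0.764 and 1.13 CPM in knockout 5, 2 and 7, against 2.08, 2.84 and 1.69 CPM in control 1, 3 and 9, so every knockout library was below every control library. The group means were 1.14 ± 0.375 CPM and 2.20 ± 0.584 CPM (SD, n = 3 each). Its rostral levels were 0.439, 1.40 and 1.36 CPM in knockout 5, 2 and 7, against 0.763, 1.90 and 0.708 CPM in control 1, 3 and 9, and the genotypes overlapped. These values rest on 12 to 77 counts per library.

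Crabp2 (ENSMUSG00000004885.6, chromosome 3, 87855973 to 87860683), which hands retinoic acid to its receptors in the nucleus, had only 4 to 34 counts per library. Rostral libraries had 0.494, 0.315 and 0.964 CPM in knockout 5, 2 and 7, against 0.573, 0.278 and 0.782 CPM in control 1, 3 and 9. Caudal libraries had 0.461, 1.11 and 0.430 CPM in knockout 5, 2 and 7, against 0.154, 1.25 and 0.346 CPM in control 1, 3 and 9. The genotypes overlapped in both parts. For the lowest library, control caudal 1, the 95% Poisson interval of the level was 0.0420 to 0.395 CPM, which covers counting error only.

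Cyp26b1 (ENSMUSG00000063415.13, chromosome 6, 84548396 to 84570890) encodes the enzyme that breaks down retinoic acid. Caudal levels of Cyp26b1 were 1.61, 1.03 and 1.05 CPM in knockout 5, 2 and 7, against 3.72, 1.88 and 3.61 CPM in control 1, 3 and 9. The knockout libraries lay close together and all below the controls, with means of 1.23 ± 0.329 CPM and 3.07 ± 1.03 CPM (SD, n = 3 each). These knockout levels rest on only 49, 27 and 27 counts in knockout caudal 5, 2 and 7. Rostral levels of Cyp26b1 were 1.10, 7.20 and 2.78 CPM in knockout 5, 2 and 7, against 6.11, 6.11 and 2.09 CPM in control 1, 3 and 9. There the genotypes overlapped, and the highest of all 12 libraries was knockout rostral 2.

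Rarb (ENSMUSG00000017491.10, chromosome 14, 5650540 to 6038924) is the retinoic acid receptor gene whose promoter is printed above. Levels in rostral libraries were 3.04, 1.33 and 11.9 CPM in knockout 5, 2 and 7, against 5.46, 1.98 and 15.4 CPM in control 1, 3 and 9. Levels in caudal libraries were 3.59, 12.4 and 1.45 CPM in knockout 5, 2 and 7, against 2.93, 31.8 and 2.77 CPM in control 1, 3 and 9. The genotypes overlapped in both parts, and the high caudal libraries were those of embryos whose rostral library was the lowest of its group. Without control caudal 3, the highest library, the caudal log2 fold change was 1.04, against -1.11 with all 6 libraries.

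Rxrg (ENSMUSG00000015843.11, chromosome 1, 167425953 to 167467192) encodes a retinoid X receptor, the dimer partner of retinoic acid receptors. Among rostral libraries it was at 1.501, 1.89 and 7.14 CPM in knockout 5, 2 and 7, against 5.80, 3.57 and 7.97 CPM in control 1, 3 and 9. Among caudal libraries it was at 6.22, 12.1 and 0.664 CPM in knockout 5, 2 and 7, against 5.63, 21.6 and 4.11 CPM in control 1, 3 and 9. The 2 lowest rostral libraries were knockout, but the genotypes overlapped in both parts. Without control caudal 3 the caudal log2 fold change was 0.39, against -0.73 with all 6 libraries.

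Meis2 (ENSMUSG00000027210.21, chromosome 2, 115693545 to 115896320), a homeobox transcription factor, was the most abundant of the 8 genes. The rostral libraries held 805, 489 and 782 CPM in knockout 5, 2 and 7, against 700, 503 and 1057 CPM in control 1, 3 and 9. The caudal libraries held 735, 1207 and 798 CPM in knockout 5, 2 and 7, against 683, 1106 and 648 CPM in control 1, 3 and 9. The genotypes overlapped in both parts. The caudal libraries of knockout 2 and control 3 were the highest of their groups, and their rostral libraries the lowest.

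Cbln2 (ENSMUSG00000024647.15, chromosome 18, 86729235 to 86736408) encodes a secreted organizer of synapses. Its rostral levels were 12.05, 3.71 and 8.85 CPM in knockout 5, 2 and 7, against 10.7, 4.84 and 12.3 CPM in control 1, 3 and 9. Its caudal levels were 4.21, 8.40 and 3.20 CPM in knockout 5, 2 and 7, against 5.28, 9.15 and 4.23 CPM in control 1, 3 and 9. The genotypes overlapped in both parts. As for Meis2, knockout 2 and control 3 gave the highest caudal and the lowest rostral library of their groups.

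Ordered by group mean, neighbouring groups overlapped for all 8 genes except at the step between control caudal and knockout caudal libraries in Cyp26b1 and Crabp1. Control caudal libraries had the highest mean for Rarb, Rxrg, Aldh1a3 and Crabp1, control rostral libraries for Cyp26b1 and Cbln2, and knockout caudal libraries for Meis2 and Crabp2. Knockout caudal libraries had the lowest mean for Cyp26b1, Aldh1a3 and Cbln2.

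Knockout was then compared with control in each part, to ask whether loss of Egfr went with a change in these genes. A gene was called when its Benjamini-Hochberg adjusted p over all genes tested was under 0.05 by edgeR's quasi-likelihood test, and all 8 genes passed the filter on low counts in each comparison. In caudal libraries 0 of the 8 genes were called, where 8 of 16964 genes were, 0.0472%. An unadjusted p under 0.05 was reached by 2 of the 8, Cyp26b1 and Crabp1, against 871 genes or 5.13% of all. DESeq2 called 77 genes in all and 0 of the 6 members to which it gave an adjusted p, and it gave none to Aldh1a3 and Crabp2. The genotypes did not overlap for 2 of the 8, Cyp26b1 and Crabp1, both lower in knockout libraries. Of all genes, 10.1% did not overlap and 6.14% were lower without overlap.

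The log2 fold change of Cyp26b1 in caudal libraries was -1.29 (SE 0.33, 95% interval -2.05 to -0.54, adjusted p = 0.678 by edgeR). Over the alternatives the fold change stayed between -1.54 and -1.14 on the log2 scale and the adjusted p ran from 0.0675, with no filter, to 0.99999. Crabp1 had a log2 fold change of -0.94 (SE 0.32, 95% interval -1.69 to -0.19, adjusted p = 0.867 by edgeR). Without the libraries of knockout embryo 2 and control embryo 3, whose Nr2f1 ran against their labels, the values were -1.43 for Cyp26b1 (adjusted p = 0.361) and -0.48 for Crabp1 (adjusted p = 0.9999). The median over the 8 genes was -0.83, beside -0.00 over all genes tested, with 6 of the 8 below 0. Without control caudal 3 the median was 0.44, with 2 of the 8 below 0, and without knockout caudal 7 it was -0.43, so single libraries decide the median and its direction.

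Markers of other cell types were set beside this comparison, and 0 of them were called in caudal libraries. The 5 oligodendrocyte precursor markers summed to 36.0 to 63.4 CPM in knockout caudal and 83.9 to 126 CPM in control caudal libraries without overlap, with 5 of 5 fold changes below 0 and a median of -0.96 (smallest adjusted p = 0.0704 by edgeR). Fold changes were also below 0 for 11 of 12 interneuron markers (median -0.42) and 11 of 11 tested striatal markers (-0.48). The same held for 6 of 6 tested meninges (-0.76), 6 of 6 endothelial (-0.50) and 3 of 3 tested choroid plexus markers (-1.15). It held for 5 of 6 Cajal-Retzius (-0.71), 6 of 8 hippocampal (-0.31) and 5 of 5 blood markers (-0.18). Above 0 were 6 of 8 excitatory neuron (0.21), 5 of 6 astrocyte (0.13) and 3 of 5 tested thalamus markers (0.01). The sums overlapped between genotypes except for precursor and thalamus markers. Thalamus markers came to 121 to 134 CPM in knockout caudal and 110 to 113 CPM in control caudal libraries. Slc17a6 made up 70.4% of their sum over all libraries, and Gbx2 was at 0 in 3 libraries. The marker lists whose sums had the highest r with Cyp26b1 and Crabp1 overlapped between genotypes. Cajal-Retzius markers summed to 78.1 to 193 CPM in knockout caudal and 146 to 306 CPM in control caudal libraries. All 6 of 6 were above 0 throughout, and Reln made up 80.7% of the sum. The sum had an r of 0.73 with Cyp26b1 over the 12 libraries (Spearman's rho 0.58). This r was 0.47 without the 2 libraries whose sum lay farthest from the median. Choroid plexus markers, whose sum had an r of 0.66 with Crabp1, came to 0.527 to 9.71 CPM in knockout caudal and 5.86 to 15.6 CPM in control caudal libraries. Of these 8 markers, Ttr made up 60.7% of the sum, and 4 were above 0 in every library. Folr1, Kcnj13 and Kcne2 were at 0 in some libraries of both genotypes, and Ttr in some knockout libraries. In rostral libraries 0 of these markers were called. There 6 of 6 tested meninges (median 0.36), 6 of 6 endothelial (0.28) and 5 of 5 blood markers (0.38) were above 0. So were 6 of 8 hippocampal (0.16), 4 of 6 Cajal-Retzius (0.09), 6 of 6 astrocyte (0.21) and 3 of 5 tested thalamus markers (0.03). Below 0 were 10 of 11 tested striatal (-0.58), 9 of 12 interneuron (-0.08) and 7 of 8 excitatory neuron markers (-0.10). So were 3 of 5 precursor and 1 of 2 tested choroid plexus markers. The part of any of these cell types in the values of Cyp26b1 and Crabp1 was not tested.

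In rostral libraries 0 of the 8 genes were called by edgeR, beside 0% of 17131 genes, and 0 had an unadjusted p under 0.05, beside 180 genes or 1.05%. DESeq2 called 0 of the 8 and 4 genes in all. The log2 fold changes were -0.68 for Rxrg (95% interval -2.20 to 0.85), -0.46 for Rarb (-2.74 to 1.82) and -0.32 for Cyp26b1 (-1.95 to 1.31). The other 5 lay between -0.15 for Cbln2 and 0.16 for Crabp2. For 0 of the 8 genes did the genotypes separate, beside 6.21% of all genes. The median was -0.12, beside 0.00 over all genes tested, and ran from -0.39 to 0.20 with each library left out in turn.

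**Figure D2:**
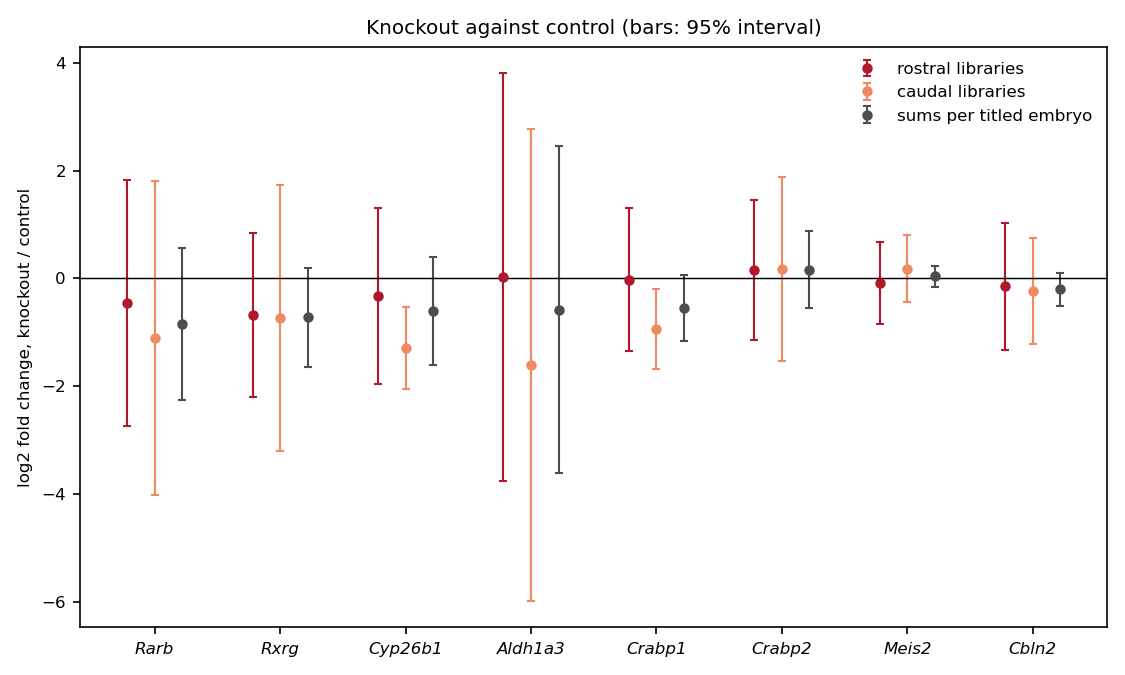
Log2 fold change of knockout over control for each gene in rostral libraries, caudal libraries and sums per titled embryo (points, edgeR; bars, 95% interval; n = 3 against 3). The intervals of Cyp26b1 and Crabp1 in caudal libraries lie below 0, without adjustment for the number of genes tested, and those of Aldh1a3 are the widest. Meis2 in the sums has the narrowest interval, from -0.16 to 0.24.

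When both parts were summed per titled embryo, the 6 sums lay close together for the frontal genes, within 1.24-fold for Meis2 and 1.40-fold for Cbln2, but spanned 19.2-fold for Aldh1a3 and 5.23-fold for Rarb. Meis2 was at 768, 832 and 790 CPM in the sums of knockout 5, 2 and 7, against 692, 816 and 856 CPM in those of control 1, 3 and 9, a mean of 797 ± 32.6 CPM and 788 ± 85.6 CPM (SD, n = 3 each). Its log2 fold change was 0.04 (95% interval -0.16 to 0.24), so a change past 1 on the log2 scale in either direction lies outside the interval. Cbln2 was at 7.92, 5.95 and 6.15 CPM in knockout sums, against 8.02, 7.07 and 8.31 CPM in control sums, with a log2 fold change of -0.20 (-0.50 to 0.11). Sums overlapped between genotypes for both frontal genes.

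Rarb was at 3.33, 6.61 and 6.88 CPM in the knockout sums, against 4.20, 17.4 and 9.18 CPM in the control sums, and its log2 fold change was -0.85 (SE 0.57, 95% interval -2.26 to 0.56). The highest of these sums, control 3, set much of this value, which was -0.24 without that embryo. Rxrg was at 3.99, 6.75 and 4.05 CPM, against 5.72, 12.9 and 6.07 CPM, with a log2 fold change of -0.72 (SE 0.38, 95% interval -1.64 to 0.20), and of -0.24 without control embryo 3. In each of these receptor genes the lowest sum was a knockout and the highest a control, and the genotypes overlapped.

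Cyp26b1 was at 1.37, 4.25 and 1.96 CPM in the sums of knockout 5, 2 and 7, against 4.92, 3.92 and 2.84 CPM in those of control 1, 3 and 9. Its log2 fold change was -0.60 (SE 0.42), and it was -1.18 without knockout embryo 2, the highest knockout sum, and -0.30 without knockout embryo 5, the lowest. Crabp1 was at 1.01, 1.09 and 1.25 CPM, against 1.42, 2.39 and 1.19 CPM, with a log2 fold change of -0.55 (SE 0.27, 95% interval -1.16 to 0.06), and of -0.20 without control embryo 3. The genotypes overlapped for both genes. Aldh1a3 and Crabp2 had log2 fold changes of -0.58 (SE 1.18) and 0.16 (SE 0.31), which ran from -1.92 to -0.05 and from -0.08 to 0.45 with each embryo left out in turn.

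Across the sums 0 of the 8 genes were called by edgeR, where 6 of 18937 genes were, 0.0317%, and all 8 adjusted p were 0.9999. None, 0 of 8, had an unadjusted p under 0.05, beside 643 genes or 3.4%, and DESeq2 called 0 of the 8 and 32 genes in all. The genotypes did not separate for any of the 8, beside 8.3% of all genes. The median over the 8 was -0.56, beside -0.00 over all genes tested, and 6 of 8 were below 0. It was -0.22 without control embryo 3 and -0.32 without knockout embryo 5.

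The rest of the pathway was described by lists of genes with the same roles. In the sums, 0 genes of any of these lists were called. Of 6 retinoic acid and retinoid X receptors, all 6 were tested, with a median log2 fold change of -0.19. Rara, a retinoic acid receptor that many cell types express, spanned 5.37 to 13.2 CPM in the 6 knockout libraries and 7.22 to 16.9 CPM in the 6 control libraries, with a log2 fold change of -0.39 (SE 0.15, adjusted p = 0.9999 by edgeR). Rxrb, the receptor of this list with the highest median at 38.8 TPM, had a log2 fold change of 0.05, and Rxra and Rarg of 0.02 and 0.01. The lower estimates of this list were those of Rarb, Rxrg and Rara.

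Among 3 binding proteins, Fabp5, a fatty acid carrier that also takes retinoic acid to other nuclear receptors, was by far the most abundant at a median of 210 TPM. It spanned 204 to 290 CPM in the 6 knockout libraries and 193 to 284 CPM in the 6 control libraries, with a log2 fold change of 0.06. Of 6 synthesis genes 4 were tested, with a median of 0.01. Dhrs3, which turns retinaldehyde back to retinol, had a log2 fold change of 0.30 (SE 0.20), and Rdh11, a retinol dehydrogenase, one of 0.03. Rdh10, another retinol dehydrogenase, was at 9.26 to 12.3 CPM in knockout and 9.86 to 12.1 CPM in control libraries. The retinaldehyde dehydrogenases Aldh1a1 and Aldh1a2 were barely detected, at 0.461 CPM or less and 0.346 CPM or less in every library.

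Of the 3 degradation genes only Cyp26b1 passed the filter. Cyp26a1 and Cyp26c1 were at 0 in 8 and 10 of the 12 libraries. Of 6 genes of uptake and storage 4 were tested, with a median of -0.13, and the smallest p belonged to Stra6l (log2 fold change -0.26) and Rbp4 (0.31). Among 6 receptor cofactors the median was -0.11, and Ncoa3, a coactivator, had a log2 fold change of -0.25 (SE 0.08, adjusted p = 0.9999 by edgeR). Of 7 genes that retinoic acid induces in other tissues 2 passed the filter, Tgm2 and Rarres2, at 0.23 and 0.28.

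**Figure D3:**
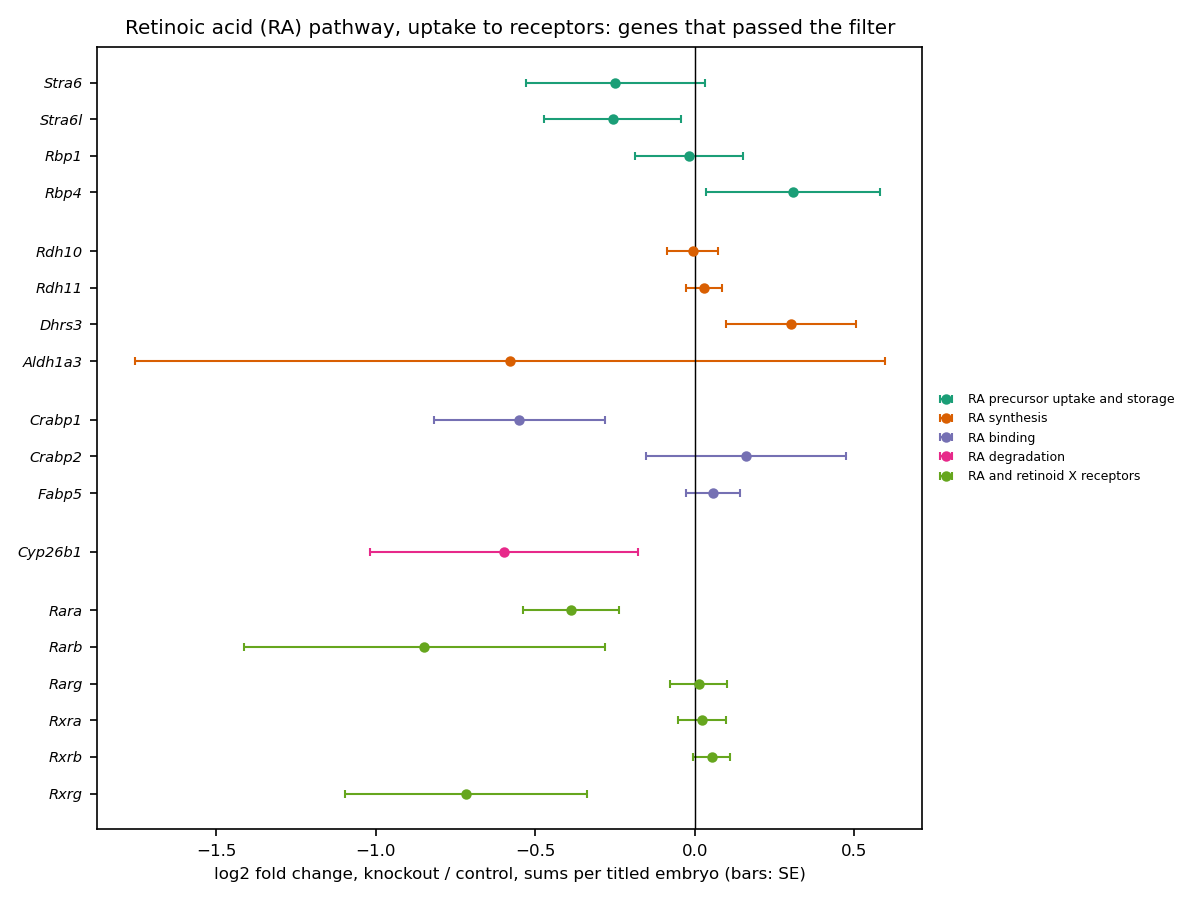
Log2 fold change of knockout over control in the sums per titled embryo (edgeR, bars are SE, n = 3 against 3) for the retinoic acid pathway genes that passed the filter, from uptake to receptors, coloured by role. The 3 lowest receptors are Rarb at -0.85, Rxrg at -0.72 and Rara at -0.39, while Rarg, Rxra and Rxrb lie within 0.06 of 0. None of the genes shown was called.

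Caudal libraries were compared with rostral libraries over both genotypes, which asks whether the frontal genes followed the labelled axis. By edgeR 0 of the 8 genes were called, beside 0% of 17734 genes, and 1 of 8, Cyp26b1, had an unadjusted p under 0.05, beside 1765 genes or 9.95%. DESeq2 called 0 of the 8 and 83 genes in all. Cyp26b1 had a mean of 1.23 ± 0.329 CPM in knockout caudal and 3.70 ± 3.15 CPM in knockout rostral libraries, and of 3.07 ± 1.03 CPM in control caudal and 4.77 ± 2.32 CPM in control rostral libraries (SD, n = 3 each). Its log2 fold change, caudal over rostral, was -1.07 (SE 0.42, adjusted p = 0.460 by edgeR), and -0.56 without knockout embryo 2.

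Cbln2 was at 5.27 ± 2.76 CPM in knockout caudal and 8.20 ± 4.21 CPM in knockout rostral libraries, and at 6.22 ± 2.59 CPM in control caudal and 9.27 ± 3.92 CPM in control rostral libraries (SD, n = 3 each). Its log2 fold change was -0.58 (SE 0.36, adjusted p = 0.633 by edgeR). Without the libraries of knockout embryo 2 and control embryo 3 it was -1.37 with an adjusted p of 0.0408 by edgeR, and 16 genes of 17759 were called. Nr2f1 chose the libraries left out there and its level tracked that of Cbln2, so this value is a description. Meis2 had a log2 fold change of 0.28 (95% interval -0.23 to 0.79), and -0.21 without those libraries.

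The remaining genes gave wide intervals on this axis. Rxrg had a log2 fold change of 0.87 (95% interval -0.57 to 2.31), and Rarb of 0.42 (-1.40 to 2.24). Without the libraries of knockout embryo 2 and control embryo 3 these were -0.40 and -1.71, neither called. Crabp1 had a log2 fold change of 0.57 (-0.18 to 1.31), Aldh1a3 of -0.74 (-3.60 to 2.13) and Crabp2 of 0.16 (-0.95 to 1.27).

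Whether the genotypes differed in 1 part more than in the other was tested as an interaction. By edgeR 0 of the 8 genes were called, beside 0% of 17734 genes, and 0 of 8 had an unadjusted p under 0.05, beside 486 genes or 2.74%. DESeq2 called 0 of the 8. For Cyp26b1 the difference of log2 fold changes, caudal minus rostral, was -0.97 (SE 0.84, 95% interval -2.83 to 0.89), and 0.06 without knockout embryo 2. For Crabp1 it was -0.91 (SE 0.68, 95% interval -2.40 to 0.58). The lower caudal levels of both genes are thus not shown to be particular to the caudal part.

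The 8 genes fell into patterns over the 12 libraries that crossed the groups. The correlations given are Pearson's r of log2(CPM + 1) over the 12 libraries, which share sequencing depth, dissection and possibly embryos, and are descriptions. Rarb was most like Aldh1a3 (r = 0.94), Crabp2 (r = 0.90) and Rxrg (r = 0.87) among the 8 genes, and its r was 0.80 with Meis2 and 0.70 with Cbln2. Of the 28 pairs of genes, 19 had a positive r, 14 had one above 0.5 and 1 had one below -0.5. Cyp26b1 and Crabp1 stood apart, with r of -0.34 and 0.07 with Rarb, and the pair below -0.5 was Cyp26b1 and Meis2 at -0.77.

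**Figure D4:**
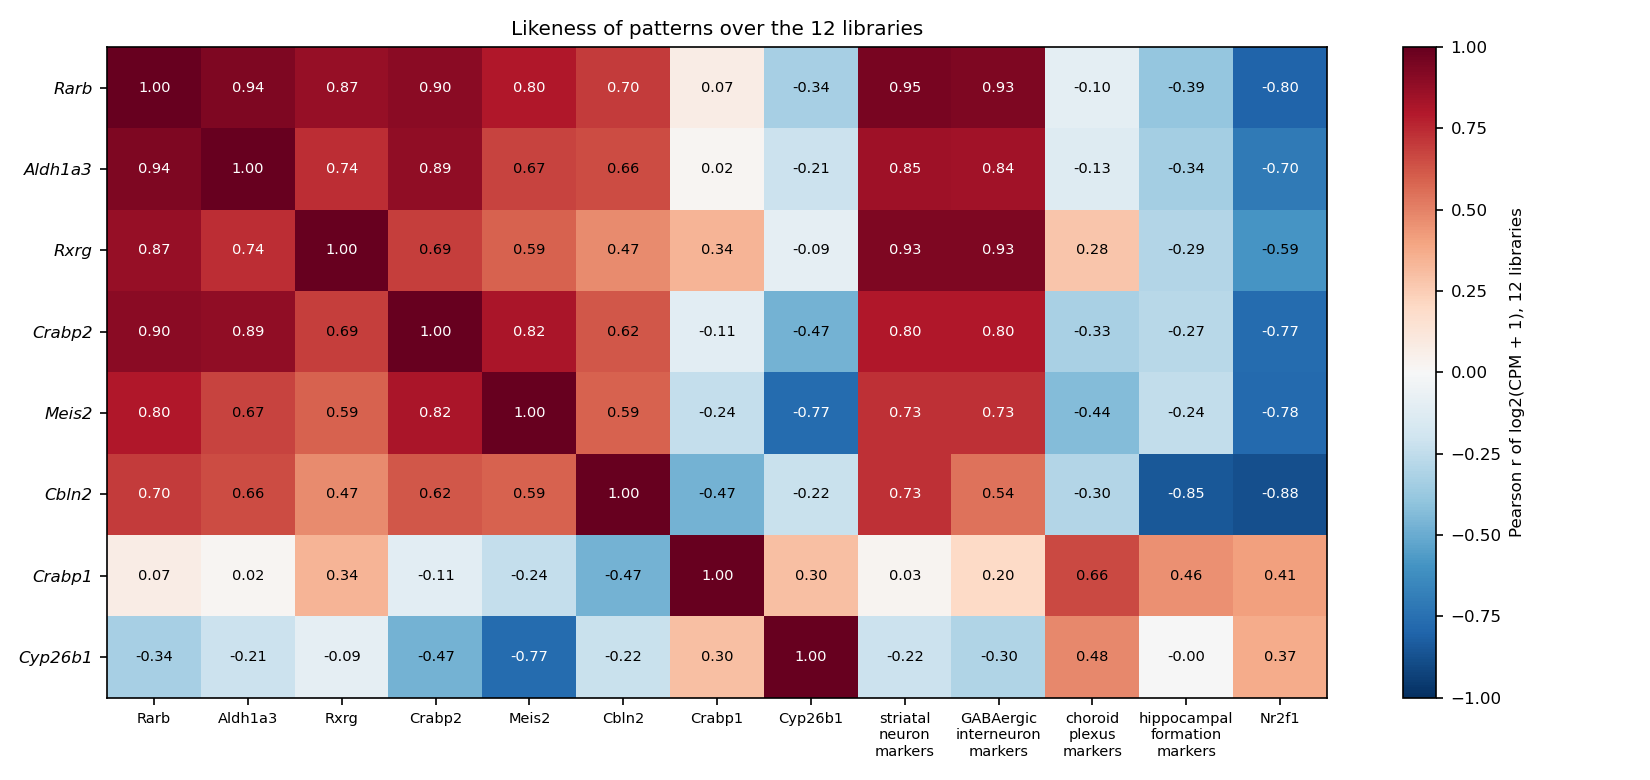
Pearson's r of log2(CPM + 1) over the 12 libraries between the 8 genes (rows) and the same genes, summed marker lists and Nr2f1 (columns), from blue for -1 to red for 1. The upper 6 rows are positively related to one another and to striatal neuron markers, and negatively to Nr2f1. Crabp1 and Cyp26b1 share neither relation.

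Markers of striatal neurons moved with the upper set. The striatum lies under the cortex, and its neurons are known to express Rarb and Rxrg. The 12 markers summed to 49.4, 28.6 and 120 CPM in knockout rostral 5, 2 and 7, against 113, 47.9 and 192 CPM in control rostral 1, 3 and 9. In caudal libraries they summed to 76.7, 168 and 22.2 CPM in knockout 5, 2 and 7, against 62.5, 248 and 56.7 CPM in control 1, 3 and 9. The libraries high in Rarb were thus the ones high in these markers. Of the 12 markers 11 were above 0 in every library, and Tac1 was at 0 in at least 1 control library.

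Over the 12 libraries, r with the summed striatal markers was 0.95 for Rarb, 0.93 for Rxrg, 0.85 for Aldh1a3, 0.80 for Crabp2 and 0.73 for both Meis2 and Cbln2. It was 0.03 for Crabp1 and -0.22 for Cyp26b1. By genotype, that of Cyp26b1 was -0.26 in the 6 knockout and -0.73 in the 6 control libraries. For Rarb, Spearman's rho was 0.97, r was 0.96 in the 6 knockout and 0.98 in the 6 control libraries, and it was 0.96 without the 2 libraries farthest from the median. Markers of GABAergic interneurons, several of which striatal neurons also express, summed to 311 to 1159 CPM in knockout and 460 to 1345 CPM in control libraries, with all 12 of 12 above 0. Their r with Rarb and Rxrg was 0.93 each.

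In the sums per titled embryo, all 12 of 12 striatal markers had a negative log2 fold change, with a median of -0.51 and 0 called by edgeR. For interneuron markers it was 12 of 12, with a median of -0.22 and 0 called. These stand beside the values of Rarb and Rxrg in the same sums, -0.85 and -0.72, both -0.24 without control embryo 3. The part of striatal tissue in the values of the 8 genes was not tested.

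**Figure D5:**
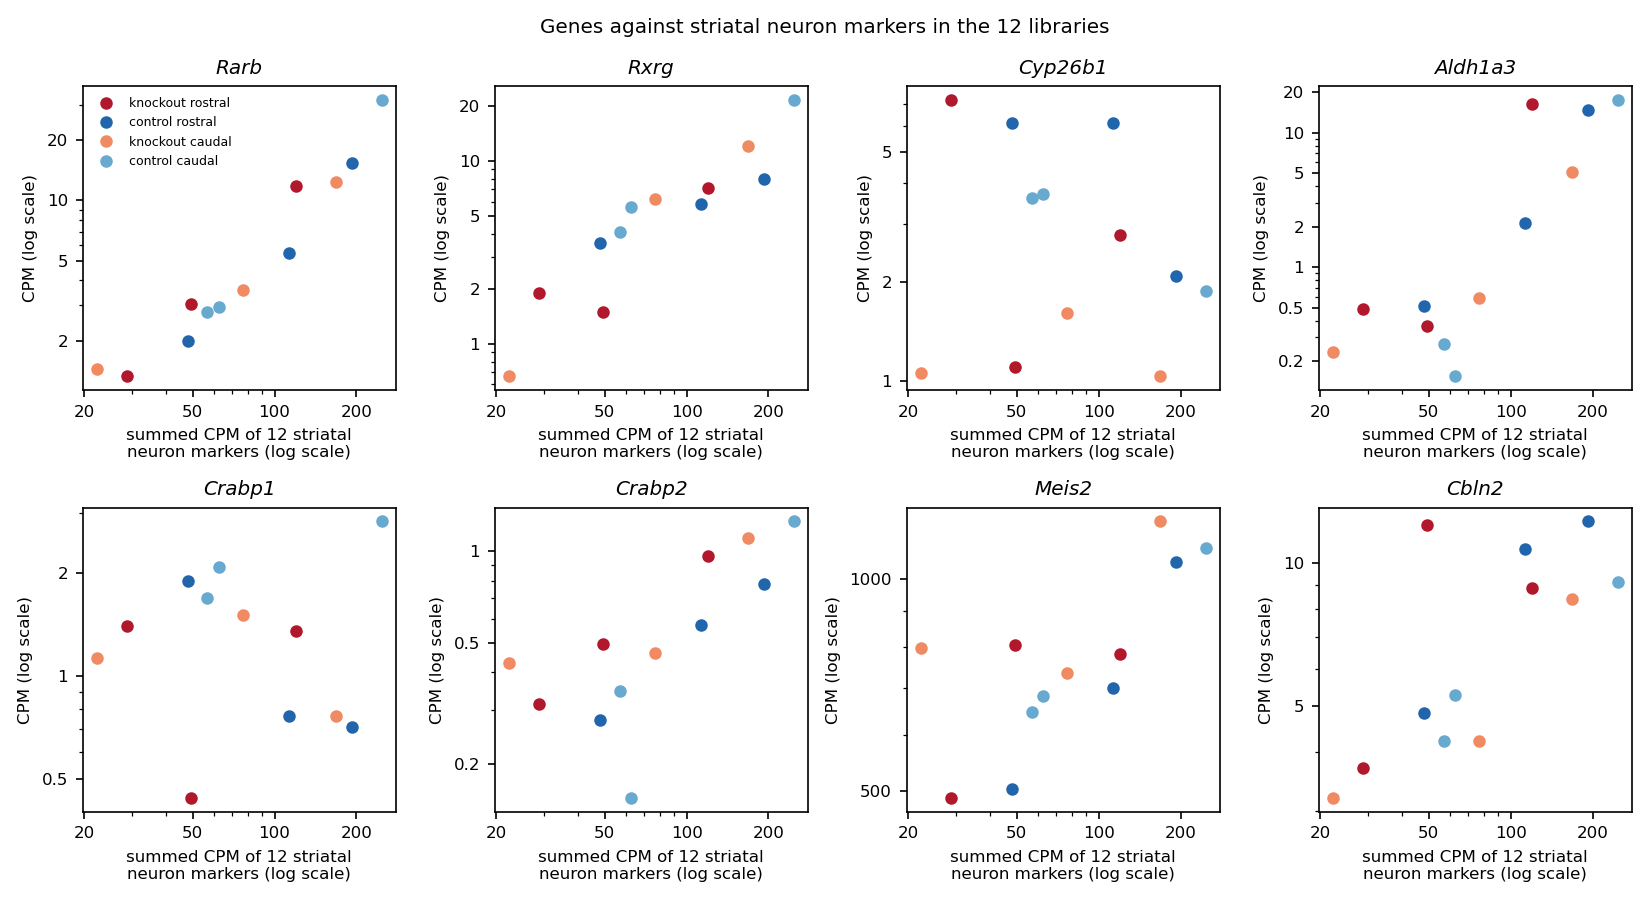
Level of each gene in CPM against the summed CPM of 12 striatal neuron markers (both axes log) in the 12 libraries, coloured by group. Rarb and Rxrg lie along a rising line with r of 0.95 and 0.93 over log2(CPM + 1), with libraries of all 4 groups on it. Cyp26b1 and Crabp1 do not, with r of -0.22 and 0.03.

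Nr2f1 ran the other way for the same genes. Its r was -0.88 with Cbln2, -0.80 with Rarb, -0.78 with Meis2, -0.77 with Crabp2, -0.70 with Aldh1a3 and -0.59 with Rxrg, and 0.41 with Crabp1 and 0.37 with Cyp26b1. For Cbln2 it was -0.84 in the 6 knockout and -0.97 in the 6 control libraries. It was less even for Aldh1a3, at -0.32 in knockout and -0.92 in control libraries. For Rxrg it fell to -0.39 without the 2 libraries whose Nr2f1 lay farthest from the median. Cbln2 also ran against the summed markers of the hippocampal formation (r = -0.85), and Meis2 against those of Cajal-Retzius cells (r = -0.86). Single genes dominated both sums, as Zbtb20 made up 90.6% of the hippocampal sum and Reln 80.7% of the Cajal-Retzius sum.

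Over 12477 genes with a mean of at least 1 CPM, predicted and sex-linked genes left out, the 3 most like each of the 8 were taken by r. For Rarb they were Dcbld1 (r = 0.98), Abat, the enzyme that breaks down GABA, and Slc18a2, a vesicular monoamine transporter (r = 0.97 each). For Rxrg they included Gad2, which makes GABA, and Ptprm, at r of 0.96 and 0.95, and Gad2 ranked the 12 libraries exactly as Rxrg did (rho = 1). Aldh1a3 was nearest to Fign, Sowaha and Slc18a2 (r from 0.95 to 0.94), and Crabp2 to Etv1, Insyn2b and Sdk2 (r from 0.94 to 0.93). Meis2 was nearest to Maml3 (r = 0.98), Erbin (r = 0.98) and Zfhx4 (r = 0.97), and Cbln2 to Btbd11 (r = 0.97), Tox (r = 0.95) and Pyurf (r = 0.95). Cyp26b1 was nearest to Bcl6b, Psmg1 and Camk1g (r from 0.95 to 0.93). Crabp1 had no gene above an r of 0.86, with Pnma1, Galnt4 and Ccdc189 nearest.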

How the data were processed

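Libraries were made from captured messenger RNA and read from both ends, per the labels' protocols. The aligner was STAR 2.7.8a, the genome GRCm39 and the counter featureCounts 2.0.3, per the submitters' processing notes. Per the file headers, fragments were counted on the reverse strand of GENCODE genes, with reads that map or overlap several times counted in fractions. The authors' deposited values are therefore expected counts per gene, not normalized, and 21.6% to 23.9% of detected values per library were not whole. No file names a batch beyond the number 4858 or 4692 in the titles.

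Counts were scaled to CPM by the library total. TPM used the exon lengths in the files. For tests, counts were rounded and fitted in R 4.3.3 with edgeR 4.0.16 (filterByExpr with a minimum count of 10, TMM, robust quasi-likelihood), 3 against 3 for knockout against control and 12 libraries in 4 groups for the other contrasts. The SE is the log2 fold change over the square root of F, and 95% intervals use the test's own degrees of freedom. The script was tested on simulated data.

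The 8 genes, the lists and the tests were chosen with earlier results of these data known. Named besides the 8 are, for each list, any called gene and the 2 with the smallest p in the sums, list genes at or near 0, receptors and the abundant Fabp5, these last after their values were seen, and for likeness the 3 genes of highest r with a pseudocount of 1 CPM. Alternatives were DESeq2's size factors, no filter, the Wald test of DESeq2 1.42.0, every titled embryo left out in turn, the title number as a covariate, all 12 libraries in 1 fit, the titled embryo as a block and 2 control libraries left out. Some genes that these rules name are not reported here. A fit without knockout embryo 2 and control embryo 3 was added after seeing the data.

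The pairing of parts by titled embryo was checked by correlating deviations from group means over 1000 genes. Own pairs gave -0.706 to 0.176, with 1 of 6 above 0.1, and other pairs of the same genotype gave -0.410 to 0.779, with 6 of 12 above 0.1, so the main tests have no block, and the sums follow the titles without support from these values. The reference sequences are of another build, GRCm38.p6, and were used for the promoters alone.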

Additional observations from a re-analysis of the deposited data

Results flagged for a closer look

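Among the 6 libraries of each genotype, the highest or lowest level of each of the 8 genes was compared with its nearest neighbour. In 3 of the 16 groups of 6 libraries, 1 library lay further from the rest than Dixon's 95% limit allows. For normally distributed values chance alone flags about 1 in 20 groups. That rate need not hold here, as CPM spanned up to 113-fold and the 16 groups share the same 12 libraries. Each library is of 1 labelled part, so the groups of 6 mix both parts. Rxrg was at 21.6 CPM in control caudal 3, where the next control library was at 7.97 CPM. Cyp26b1 was at 7.20 CPM in knockout rostral 2, above 2.78 CPM in the next knockout library. Aldh1a3 was at 16.4 CPM in knockout rostral 7, above 5.12 CPM in the next. Of these 3 libraries, control caudal 3 also had the highest sum of striatal neuron markers, at 248 CPM, and knockout rostral 7 stood at 120 CPM for them, with the highest mitochondrial share of the 12 libraries, 7.25% of counts. Knockout rostral 2 had a Cajal-Retzius marker sum of 633 CPM, the highest in knockout libraries. The part of these in the high levels was not tested.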

How the results depend on the processing

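Of the 8 genes, 0 were called in any comparison under any alternative but 1, given below. The limits are 3 libraries or sums per group, and titles that sex-linked transcripts and Nr2f1 run against. Counts were also low for Crabp1, Crabp2 and Aldh1a3, and for Cyp26b1 in knockout caudal libraries. Fold changes of the 8 genes in caudal libraries kept their direction under every change of scaling, test or filter. By DESeq2, the number of genes called over the whole table was 4 in rostral libraries (0 in the main analysis), 77 in caudal libraries (8 in the main analysis), 32 in the sums (6 in the main analysis) and 83 in caudal against rostral (0 in the main analysis). With no filter, the number of genes called over the whole table was 2 in rostral libraries (0 in the main analysis), 57 in caudal libraries (8 in the main analysis), 110 in the sums (6 in the main analysis) and 2 in caudal against rostral (0 in the main analysis). With all 12 libraries in 1 fit, the number of genes called over the whole table was 2 in rostral libraries (0 in the main analysis) and 3 in caudal libraries (8 in the main analysis). With the 12 libraries as separate samples, the number of genes called over the whole table was 3 in the sums (6 in the main analysis). The block by titled embryo left 0 genes called in caudal against rostral and in the interaction, and 0 of the 8. With the title number as a covariate, log2 fold changes turned direction in rostral libraries for Aldh1a3 (-0.48). Without control rostral 1 and 3 (in the sums, without both embryos), log2 fold changes turned direction in rostral libraries for Cyp26b1 (0.82), Aldh1a3 (-1.33), Crabp1 (0.59) and Crabp2 (-0.38), and in the sums for Meis2 (-0.097), and in caudal against rostral for Rarb (-0.095) and Crabp2 (-0.12). Only 1 control rostral library, or 1 control sum, was left there, so these values rest on it. With the replicate block, the pairing by titled embryo, log2 fold changes turned direction in caudal against rostral for Crabp2 (-0.0084). Without the libraries of knockout embryo 2 and control embryo 3, log2 fold changes turned direction in rostral libraries for Crabp1 (0.33), and in the sums for Aldh1a3 (0.091), and in caudal against rostral for Rarb (-1.71), Rxrg (-0.40), Crabp2 (-1.06) and Meis2 (-0.21). That last setting called 1 of the 8 genes in caudal against rostral, Cbln2 at -1.37, and 16 genes over the whole table, and 19 in the sums. With each titled embryo left out in turn, genes called ran from 2 to 8 in caudal libraries, 3 to 21 in the sums, 0 to 6 in caudal against rostral and 0 to 6 in the interaction. Log2 fold changes that turned direction in rostral libraries ran from -1.80 to 0.61 for Rarb, -1.23 to 0.12 for Cyp26b1, -3.75 to 2.19 for Aldh1a3, -0.26 to 0.56 for Crabp1, -0.38 to 0.54 for Crabp2, -0.32 to 0.26 for Meis2 and -0.51 to 0.21 for Cbln2. Log2 fold changes that turned direction in caudal libraries ran from -2.30 to 1.04 for Rarb, -1.59 to 0.39 for Rxrg, -3.81 to 3.21 for Aldh1a3, -0.39 to 1.41 for Crabp2, -0.069 to 0.48 for Meis2 and -0.73 to 0.17 for Cbln2. Log2 fold changes that turned direction in the sums ran from -0.084 to 0.45 for Crabp2 and -0.051 to 0.12 for Meis2. Log2 fold changes that turned direction in caudal against rostral ran from -0.88 to 1.32 for Rarb, -3.42 to 1.40 for Aldh1a3 and -0.62 to 0.54 for Crabp2. Log2 fold changes that turned direction in the interaction ran from -1.63 to 0.057 for Cyp26b1. Without control embryo 3, those of Rarb, Rxrg, Aldh1a3 and Cbln2 in caudal libraries were above 0, and the cause was not tested.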

Other observations

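The families of the frontal genes were looked at as well. Of the 9 MEIS and PBX family genes, which encode homeobox factors that bind DNA together, 0 were called in the sums per titled embryo, with a median log2 fold change of -0.01 and the smallest p for Meis1 at -0.16 (SE 0.15). Meis2 itself made up 46.7% of their summed level. In knockout 5, 2 and 7 that level was 1759, 1211 and 1654 CPM rostrally and 1518, 2395 and 1596 CPM caudally. In control 1, 3 and 9 it was 1564, 1213 and 2203 CPM rostrally and 1483, 2382 and 1407 CPM caudally. The caudal level was thus above the rostral one for knockout 2 and control 3, and below it for the other titled embryos.

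Cerebellins act at synapses by bridging neurexins and delta-type glutamate receptors. Of these 9 genes, 0 were called in caudal libraries, where 9 of 9 had a negative log2 fold change with a median of -0.35, beside -0.00 over all genes tested. Chosen after the values were seen, Cbln1 was at -0.35 (SE 0.10, adjusted p = 0.740 by edgeR) and Grid1, a delta-type receptor, at -0.41 (SE 0.14, adjusted p = 0.874 by edgeR). In rostral libraries 7 of 9 were positive, with a median of 0.06 and 0 called. The sums hold the counts of both parts. There 8 of 9 were negative, with a median of -0.10 and 0 called, and Cbln3 was at -0.49. Among the frontal and rostral cortex genes, Pax6 was at 0.39 in caudal libraries (SE 0.11, adjusted p = 0.717 by edgeR) and Lmo4 at -0.16 in the sums. Oligodendrocyte precursor markers were the only listed genes called, with Olig1 and Olig2 at -1.26 and -1.33 in the sums (adjusted p = 0.0084 and 0.00752 by edgeR).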
